A study of Saccharomyces cerevisiae with 12 samples.

Results

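The 10 genes described here encode the phosphate transporters PHO84 and PHO89, the acid phosphatases PHO5, PHO3, PHO11 and PHO12, the vacuolar alkaline phosphatase PHO8, the transporter regulator SPL2 and the polyphosphate synthesis subunits VTC1 and VTC3 of budding yeast. They were taken by name from the 6078 genes of 4 tables of normalized RNA-seq counts, and all 10 had values in every table. RNA was sequenced from 4 groups of 3 libraries each. The groups were set4Δ cells in hypoxia, set4Δ cells in air, wild-type (WT) cells in hypoxia and WT cells in air. All groups share the haploid laboratory strain BY4741 and rich medium (YPD) at 30°C. The study describes mid-log growth for all of them, and the hypoxic cultures spent 18 h in sealed anaerobe pouches. The set4Δ cells carry the HIS3MX cassette in place of SET4, a gene for a chromatin protein with a SET domain, and WT cells do not. Nothing in the labels says whether the libraries of a group came from separate cultures, so the p-values measure the spread between these libraries, which may be technical. The comparisons ask how these genes respond to loss of oxygen and whether the response depends on SET4.

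The normalized counts of a library summed to between 18927743 and 24446477. SET4 itself had 21.2, 16.6 and 26.0 normalized counts in hypoxic set4Δ libraries 1 to 3 and 0, 3.78 and 0 in aerobic set4Δ libraries, against 5291, 4898 and 8574 in hypoxic WT libraries and 161, 217 and 199 in aerobic WT libraries. The low values in the set4Δ libraries match their labels. In the tables of the hypoxia responses, markers of MATa cells, the mating type of BY4741, summed to between 8806 and 28568 normalized counts per library over 4 genes, and 2 measured markers of MATα cells to between 93 and 198. Of 5 genes of low oxygen, 4 were called higher in hypoxia in each genotype, and the exception was AAC3. Of 5 genes of low glucose and stationary phase, 5 were called higher in hypoxia in WT cells. In set4Δ cells 4 of them were, and the exception was SSA3. Whether the hypoxic and aerobic cultures differed in growth state was not tested. In cultures of many cells, fewer cells that express a gene and less RNA per cell cannot be told apart.

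Budding yeast senses inorganic phosphate through the PHO pathway. In ample phosphate the cyclin and kinase pair Pho80 and Pho85 phosphorylates the activator Pho4 and keeps it out of the nucleus, and in scarce phosphate the inhibitor Pho81 blocks the kinase, so that Pho4 acts with Pho2 on genes for uptake, scavenging and storage. Pho84 is the high-affinity transporter that carries phosphate with protons, and Pho89 is a sodium-coupled transporter that works best at alkaline pH and is also under the control of calcineurin and of glucose repression. Secreted acid phosphatases free phosphate from organic compounds outside the cell, and vacuolar polyphosphate is the store. Pho4 binds the core motif CACGTG and, with lower affinity, CACGTT.

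The 600 bases before the start codon were searched for both motifs on both strands, because Pho4 binds them. The members were chosen by name as genes of phosphate handling, on which Pho4 acts. A share above that of all genes is therefore not a result of these data. CACGTG was present before 9 of the 10 genes and CACGTT before 7, and neither before PHO3. Of 5999 windows of this length before protein-coding genes, 7.20% held CACGTG, 18.8% held CACGTT and 24.4% held at least 1 of them. SPL2 had 4 copies of CACGTG, and PHO84 and VTC3 had 2 copies each. CACGTG is also the core motif of the centromere and methionine factor Cbf1, and a match is not a bound site. The windows below are from the RefSeq copy of assembly R64, 30 bases each, read 5′ to 3′ on the strand of the gene with the motif in capitals. They are shown for the genes whose values are given first below, and PHO89, PHO5, PHO11 and PHO12 share the arrangement of a CACGTT farther from and a CACGTG nearer to the start codon.
PHO89 (chrII:798828-798857, minus strand, 323 bases before the start codon): atgacaatgcagCACGTGggagacaaatag
PHO89 (chrII:798968-798997, minus strand, 463 bases before): tttcgtcatcccCACGTTgtgccattaatt
PHO84 (chrXIII:26197-26226, minus strand, 414 bases before): tgttatttccagCACGTGgggcggaaatta
PHO84 (chrXIII:26219-26248, minus strand, 436 bases before): atttaatagttcCACGTGgacgtgttattt
PHO5 (chrII:431187-431216, minus strand, 253 bases before): ccttggcactcaCACGTGggactagcacag
PHO5 (chrII:431296-431325, minus strand, 362 bases before): atattaaattagCACGTTttcgcatagaac
PHO11 (chrI:225165-225194, plus strand, 283 bases before): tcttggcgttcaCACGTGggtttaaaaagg
PHO12 (chrVIII:551804-551833, plus strand, 283 bases before): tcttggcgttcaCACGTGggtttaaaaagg
SPL2 (chrVIII:375230-375259, minus strand, 147 bases before): aaatgatgtacgCACGTGggcgaaagttca
VTC1 (chrV:302637-302666, plus strand, 157 bases before): aatagatattagCACGTGtctcggagagaa
VTC3 (chrXVI:517346-517375, minus strand, 345 bases before): tgtgcgagggccCACGTGgcttaatacaac

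In the lines above, the windows of PHO11 and PHO12 are identical, and the 2 PHO84 windows lie within the neighbouring open reading frame YML122C. The motifs found before PHO8 also lie within its neighbour, CWC21, and are not shown. PHO84 lies on chromosome XIII from 24037 to 25800, PHO89 on chromosome II from 796798 to 798522, PHO11 on chromosome I from 225460 to 226863 and PHO12 on chromosome VIII from 552099 to 553502. These 4 genes lie within 40 kb of a chromosome end, the region in which the study sought effects of SET4, at distances of 24036, 14662, 3355 and 9141 bases. PHO5 and PHO3 are neighbours on chromosome II, from 429548 to 430951 and from 427698 to 429101, with 446 bases between them. PHO8 lies on chromosome IV from 1418550 to 1420250, SPL2 on chromosome VIII from 374654 to 375100, VTC1 on chromosome V from 302806 to 303195 and VTC3 on chromosome XVI from 514511 to 517018. Each has a single coding exon. An annotated antisense RNA, YNCM0001W, overlaps PHO84, and although the libraries were stranded, the sources used here do not name the strand setting of the counts.

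Hypoxia changed most of the 10 genes in both genotypes. A gene was called when its adjusted p from limma was at most 0.05 and its log2 fold change was at least 1 in size. In set4Δ cells 1 member, PHO89, was called higher, against 18.6% of all genes, and 5 were called lower, against 15.5% of all genes. These were PHO3, PHO12, PHO5, PHO11 and VTC3. In WT cells 2 members, PHO89 and SPL2, were called higher, against 18.1% of all genes, and 4 were called lower, against 14.4% of all genes. These were PHO3, PHO12, PHO11 and PHO5. The calls in either direction came to 6 of the 10 in each genotype, against 34.1% of all genes in set4Δ cells and 32.5% in WT cells. Every hypoxic library lay below every aerobic one for 7 members in each genotype, against 41.2% of all genes in set4Δ cells and 41.4% in WT cells, and above for PHO89 in set4Δ cells (41.7% of all genes) and for PHO89 and SPL2 in WT cells (41.3%). The median log2 fold change of the members was -1.07 in set4Δ cells and -0.88 in WT cells, and that of all genes tested was 0.01 in each. With no limit on the fold, 8 members in set4Δ cells and 9 in WT cells had an adjusted p of at most 0.05, near the 79.4% and 79.5% of all genes that did.

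**Figure D1:**
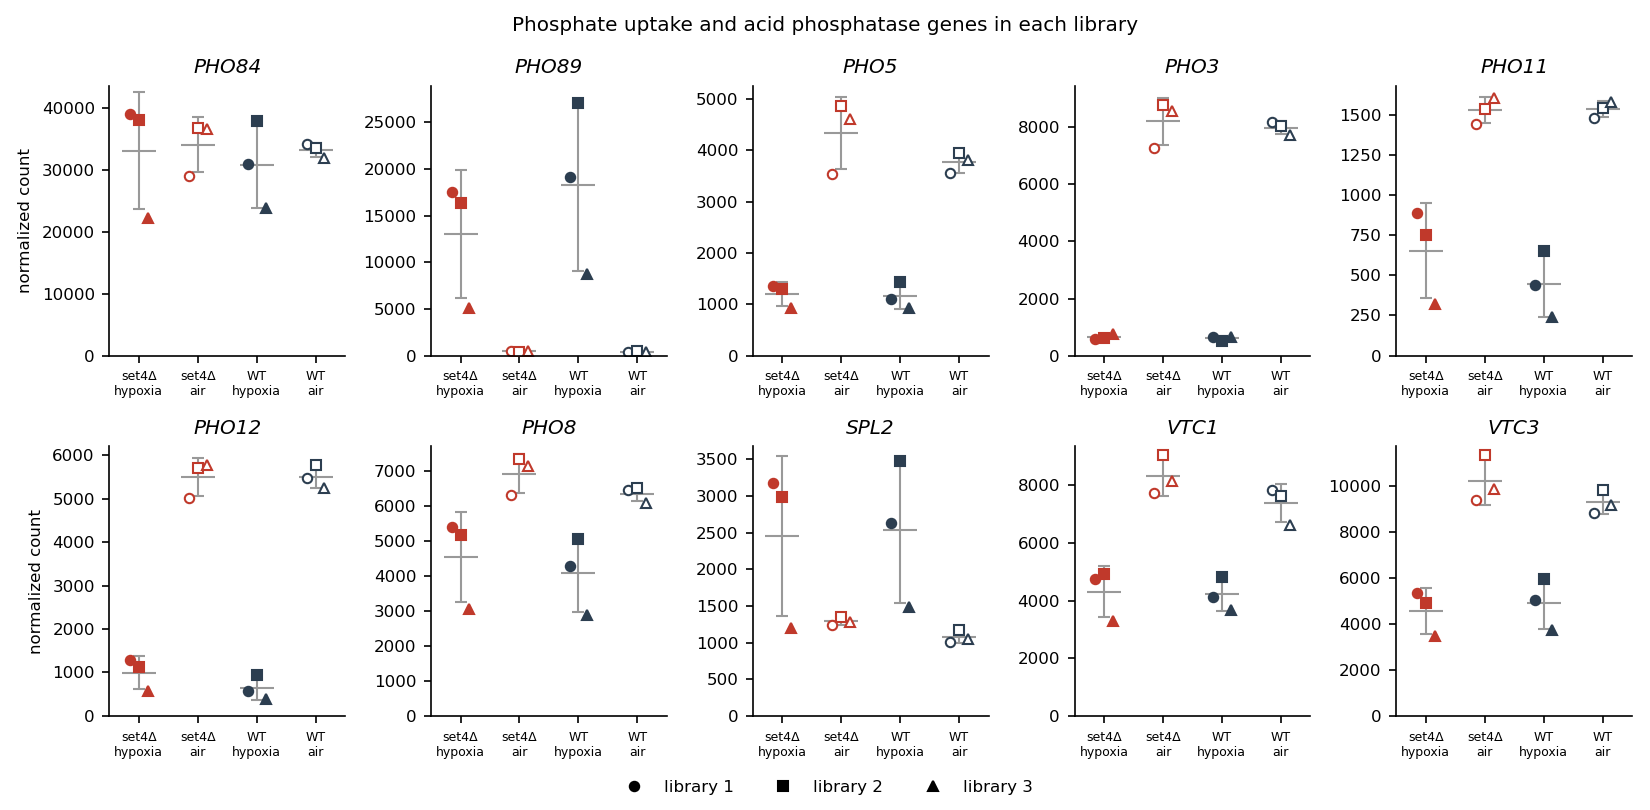
Normalized counts of the 10 genes (y axes, linear from 0) in set4Δ cells in hypoxia and air and in WT cells in hypoxia and air, with a point for each library (circle, square and triangle for libraries 1, 2 and 3) and grey bars for the mean ± SD of 3 libraries. PHO89 lay between 5151 and 27094 in hypoxia and below 510 in air (508.5 at most), while the 4 acid phosphatase genes were lower in every hypoxic library. The 2 genotypes come from tables scaled separately.

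PHO89 had the largest change of the 10 genes, an increase. It had 17501, 16393 and 5151 normalized counts in hypoxic set4Δ libraries 1, 2 and 3, against 475, 418 and 509 in aerobic set4Δ libraries. In WT cells it had 19086, 27094 and 8704 in hypoxia and 388, 455 and 389 in air. Every hypoxic library was far above every aerobic one in both genotypes, and hypoxic library 3 was the lowest of its group in each. The log2 fold change was 4.61 in set4Δ cells (standard error, SE, 0.42, adjusted p = 2.7e-05 from limma), 24.4-fold, and 5.33 in WT cells (SE 0.35, adjusted p = 2.7e-06), 40.2-fold. Without hypoxic library 3 it was 5.18 and 5.79.

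PHO84 behaved otherwise. The gene of the proton-coupled transporter was among the most abundant members in air and in hypoxia. It had 38956, 38064 and 22238 normalized counts in hypoxic set4Δ libraries and 28974, 36693 and 36520 in aerobic ones. WT cells had 30964, 37777 and 23742 in hypoxia and 34121, 33552 and 31873 in air. The groups overlapped in both genotypes. The log2 fold change was -0.08 in set4Δ cells (95% interval from -0.63 to 0.47) and -0.13 in WT cells (from -0.49 to 0.23), and neither passed the test (adjusted p = 0.77 and 0.46 from limma). Its sign was not stable. With single libraries left out, the log2 fold change of PHO84 ranged from -0.22 to 0.19 in set4Δ cells and from -0.29 to 0.04 in WT cells. Quantile normalization gave PHO84 0.26 in set4Δ cells and 0.31 in WT cells, or 0.39 and 0.46 relative to the median of all genes. It moved that median by -0.14 and -0.15. Scaling to equal totals kept the sign, with -0.004 and -0.05. Per base of coding sequence, PHO89 made up 31.5%, 30.6% and 19.2% of the summed values of both transporter genes in hypoxic set4Δ libraries and 1.65%, 1.15% and 1.40% in aerobic ones. In WT cells it made up 38.7%, 42.3% and 27.3% in hypoxia and 1.15%, 1.37% and 1.23% in air. The share was higher in every hypoxic library than in any aerobic one.

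The acid phosphatase genes fell together in both genotypes. PHO3, which encodes the constitutive enzyme and is repressed by thiamine, fell most. It had 581, 601 and 768 normalized counts in hypoxic set4Δ libraries, against 7267, 8786 and 8551 in aerobic ones. In WT cells it had 651, 514 and 660 in hypoxia and 8169, 8056 and 7739 in air. The hypoxic libraries of each genotype lay close to each other and far below those from air, with a 12.7-fold decrease in set4Δ cells (log2 fold change -3.66, SE 0.13, adjusted p = 2.4e-07 from limma) and a 13.2-fold decrease in WT cells (-3.72, SE 0.10, adjusted p = 5.2e-08). PHO3 was also the only member that was not lowest in hypoxic library 3.

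PHO5, which encodes the main secreted acid phosphatase of phosphate-starved cells, fell less. Hypoxic set4Δ libraries had 1357, 1306 and 923 normalized counts and aerobic ones 3537, 4871 and 4606. For WT cells the values were 1111, 1438 and 928 in hypoxia and 3548, 3937 and 3805 in air. The log2 fold change of PHO5 was -1.87 in set4Δ cells (SE 0.17, adjusted p = 3.0e-05 from limma) and -1.72 in WT cells (SE 0.14, adjusted p = 1.1e-05). The groups did not overlap in either genotype. PHO5 and PHO3 lie side by side on 1 strand, and their coding sequences are 86.5% identical over 1404 bases. Of their 50-base words, 12.3% for PHO5 and 8.7% for PHO3 are found elsewhere in the genome. How far shared reads entered their values was not tested.

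PHO11 and PHO12 encode further phosphate-repressible acid phosphatases near the ends of chromosomes I and VIII. PHO12 had 1286, 1131 and 565 normalized counts in hypoxic set4Δ libraries, against 5007, 5711 and 5781 in aerobic ones, a log2 fold change of -2.55 (SE 0.28, adjusted p = 6.8e-05 from limma). In WT cells it had 571, 932 and 400 in hypoxia and 5481, 5774 and 5255 in air, a log2 fold change of -3.20 (SE 0.26, adjusted p = 8.5e-06). PHO11 had 888, 750 and 320 normalized counts in hypoxic set4Δ libraries and 1445, 1539 and 1607 in aerobic ones (-1.35, SE 0.34, adjusted p = 0.0064). No hypoxic library reached the level of an aerobic one for either gene. PHO11 in WT cells had 439, 651 and 243 in hypoxia and 1480, 1543 and 1578 in air (-1.90, SE 0.30, adjusted p = 5.0e-04). Without hypoxic library 3 its change in set4Δ cells was -0.91, below the fold limit.

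The values of PHO11 and PHO12 taken apart are uncertain. Their coding sequences differ at 4 of 1404 bases, and 88.3% of the 50-base words of PHO11 and 87.2% of those of PHO12 occur elsewhere in the genome. The sources used here do not say how reads with several positions were counted. Coding bases 1209 to 1268, where 2 of the 4 differences lie, are printed from RefSeq assembly R64 to show how little separates the genes, with the differing bases in capitals.
PHO11 (chrI:226668-226727, plus strand): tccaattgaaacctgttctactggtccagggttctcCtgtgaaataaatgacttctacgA
PHO12 (chrVIII:553307-553366, plus strand): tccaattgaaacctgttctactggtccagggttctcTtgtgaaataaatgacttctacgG
The ratio of PHO12 to PHO11 was 1.45, 1.51 and 1.76 in hypoxic set4Δ libraries and 3.46, 3.71 and 3.60 in aerobic ones, and 1.30, 1.43 and 1.65 in hypoxic WT libraries and 3.70, 3.74 and 3.33 in aerobic ones. It was lower in every hypoxic library. Summed into 1 gene, PHO11 and PHO12 had a log2 fold change of -2.19 in set4Δ cells (adjusted p = 2.5e-04 from limma) and -2.80 in WT cells (adjusted p = 2.6e-05), so the decrease did not rest on how reads were split between the copies.

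Over all 4 acid phosphatase genes, the normalized counts summed to 4113, 3787 and 2577 in hypoxic set4Δ libraries, against 17256, 20906 and 20545 in aerobic ones, and to 2773, 3536 and 2231 in hypoxic WT libraries, against 18678, 19309 and 18377 in aerobic ones. The makeup shifted as well. PHO3 held 14.1%, 15.9% and 29.8% of this sum in hypoxic set4Δ libraries and 41.6% to 42.1% in aerobic ones, and 23.5%, 14.5% and 29.6% in hypoxic WT libraries and 41.7% to 43.7% in aerobic ones. PHO5 held 33.0% to 35.8% in hypoxic and 20.5% to 23.3% in aerobic set4Δ libraries, and 40.1% to 41.6% in hypoxic and 19.0% to 20.7% in aerobic WT libraries. Thus the share of PHO3 was lower and that of PHO5 higher in every hypoxic library. The size of the sums and shares depends on how reads common to PHO11 and PHO12 were counted, which is not known.

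**Figure D2:**
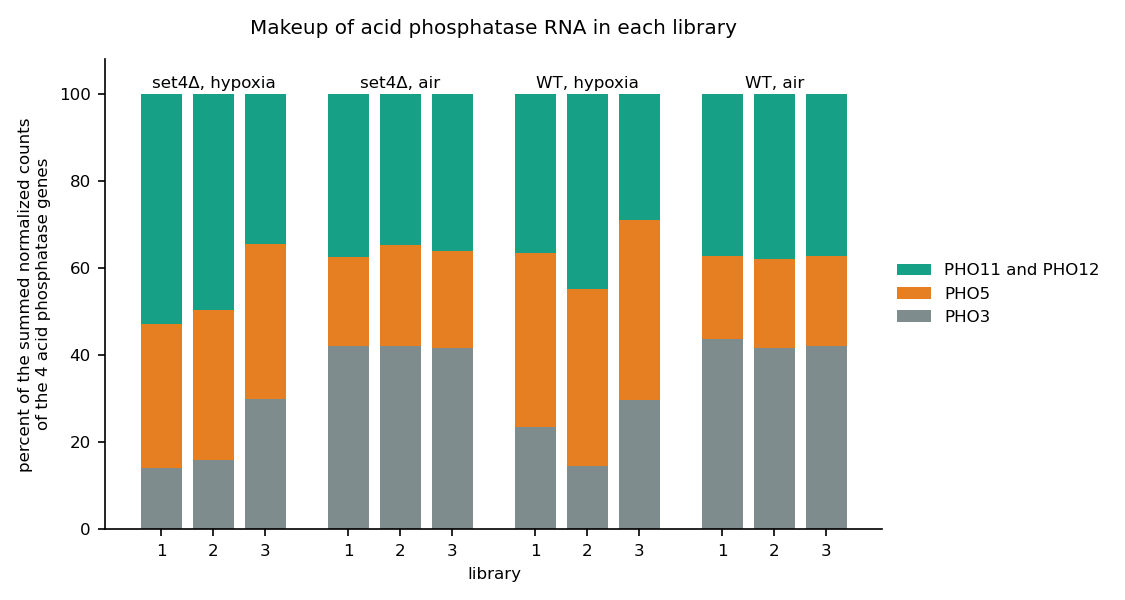
Percent of the summed normalized counts of the 4 acid phosphatase genes held by PHO3, PHO5 and the pair PHO11 and PHO12 (y axis) in each of the 12 libraries (x axis, libraries 1 to 3 of set4Δ cells in hypoxia and air and of WT cells in hypoxia and air). The grey part, PHO3, is at most 29.8% in hypoxia and at least 41.6% in air. All parts depend on how reads common to PHO11 and PHO12 were counted, which is not known.

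Spl2 is a small protein, made when phosphate is scarce, that holds down low-affinity phosphate uptake. SPL2 had 3184, 2990 and 1203 normalized counts in hypoxic set4Δ libraries, against 1245, 1344 and 1281 in aerobic ones, and 2634, 3473 and 1490 in hypoxic WT libraries, against 1011, 1174 and 1045 in aerobic ones. Library 3 of the hypoxic set4Δ cells lay below all aerobic set4Δ libraries, while in WT cells the groups did not overlap. The log2 fold change was 0.81 in set4Δ cells (SE 0.34, adjusted p = 0.056 from limma), which did not pass, and 1.15 in WT cells (SE 0.27, adjusted p = 0.0041). It was 1.26 in set4Δ cells without hypoxic library 3, past both limits, and 0.88 in WT cells without hypoxic library 2, below the fold limit.

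VTC1 and VTC3 encode subunits of the vacuolar transporter chaperone complex, which makes polyphosphate from ATP. VTC3 had 5363, 4912 and 3453 normalized counts in hypoxic set4Δ libraries, against 9407, 11327 and 9844 in aerobic ones (log2 fold change -1.18, SE 0.17, adjusted p = 3.0e-04 from limma). In WT cells it had 5029, 5964 and 3742 in hypoxia and 8842, 9840 and 9170 in air (-0.94, SE 0.15, adjusted p = 5.9e-04), short of the fold limit. The call in set4Δ cells ended without hypoxic library 3 (-0.99) and after quantile normalization (-0.96), and a call was gained in WT cells without hypoxic library 2 (-1.10). VTC1 had 4740, 4916 and 3285 in hypoxic set4Δ libraries and 7731, 9070 and 8142 in aerobic ones (-0.97, adjusted p = 6.8e-04). WT cells had 4128, 4830 and 3693 normalized counts of VTC1 in hypoxia and 7857, 7650 and 6631 in air (-0.81, adjusted p = 2.0e-04). Both genes were thus lower in every hypoxic library, by a factor close to the limit set for a call.

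PHO8, the gene of the alkaline phosphatase of the vacuole, had 5404, 5179 and 3052 normalized counts in hypoxic set4Δ libraries, against 6309, 7351 and 7134 in aerobic ones, and 4292, 5049 and 2886 in hypoxic WT libraries, against 6470, 6508 and 6102 in aerobic ones. The groups did not overlap in either genotype. Its log2 fold change was -0.65 in set4Δ cells (SE 0.21, adjusted p = 0.021 from limma) and -0.68 in WT cells (SE 0.18, adjusted p = 0.0083), both under the fold limit.

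**Figure D3:**
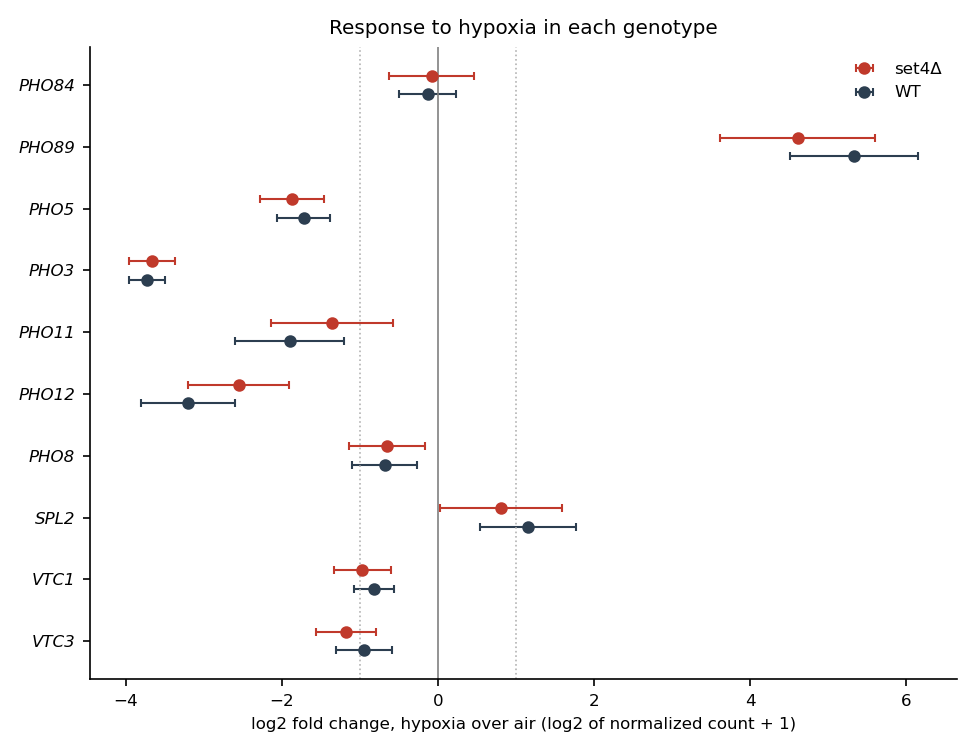
Log2 fold change from limma of hypoxia over air for each of the 10 genes (x axis, on log2 of the normalized count + 1) in set4Δ cells (red, upper) and WT cells (dark blue, lower), with 95% intervals. Dotted lines mark a log2 fold change of 1 in size. PHO89 stands at 4.61 and 5.33, and PHO3 at -3.66 and -3.72.

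Divided by the length of the coding sequence, which leaves out untranslated ends and so overstates short genes such as VTC1 and SPL2, levels could be set in order. The places of PHO11 and PHO12 are uncertain. Of their 50-base words, 88.3% and 87.2% are repeated in the genome, and the counting of such reads is not known. In hypoxic set4Δ cells PHO84 stood first with 18756 ± 5332 normalized counts per kb (SD, n = 3 libraries), followed by VTC1 with 11062 ± 2295, PHO89 with 7545 ± 3961 and SPL2 with 5501 ± 2443. The libraries of VTC1, PHO89 and SPL2 overlapped with their neighbours in this order, while PHO84 and VTC1 met without overlap, and PHO3 and PHO11 stood last with 463 ± 73.2 and 465 ± 211. In aerobic set4Δ cells VTC1 and PHO84 led with 21319 ± 1758 and 19310 ± 2499, and PHO89 stood last with 271 ± 26.6. In hypoxic WT cells PHO84 had 17476 ± 3979, VTC1 10813 ± 1470 and PHO89 10606 ± 5345 normalized counts per kb, and PHO11 stood last with 316 ± 145. In aerobic WT cells VTC1 and PHO84 had 18921 ± 1683 and 18811 ± 663, with overlapping ranges, PHO3 had 5689 ± 159, and PHO11 and PHO89 stood last with 1092 ± 35.5 and 238 ± 22.1. By its mean, PHO89 was thus the lowest of the 10 genes in air and the third in hypoxia in both genotypes. In hypoxia its range overlapped those of VTC1 and SPL2 in both genotypes, and in WT cells also that of PHO84.

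No difference between set4Δ and WT cells passed the test for any of the 10 genes when the libraries were not paired by number. In hypoxia limma called 0 members, against 1.21% of 5875 genes, and 0 members had an unadjusted p of at most 0.05, against 13.2% of all genes. The estimates for PHO12, PHO89 and PHO11 were the largest in size. These 3 genes lie within 40 kb of a chromosome end, and so does PHO84, whose estimate was 0.06. The coding sequences of PHO11 and PHO12 differ at 4 of 1404 bases, so their estimates cannot be taken as independent. PHO12 had 1240, 1084 and 551 normalized counts in hypoxic set4Δ libraries, against 561, 918 and 391 in hypoxic WT libraries, a log2 fold change of 0.63 (SE 0.39, 95% interval from -0.30 to 1.55, adjusted p = 0.57). PHO89 had 16878, 15705 and 5023 in hypoxic set4Δ libraries and 18739, 26684 and 8517 in hypoxic WT libraries (-0.56, from -1.92 to 0.80, adjusted p = 0.77). PHO11 had 857, 718 and 312 in hypoxic set4Δ libraries and 431, 641 and 238 in hypoxic WT libraries (0.52, from -0.59 to 1.62, adjusted p = 0.73). All 3 pairs of groups overlapped, and in each the overlap came from library 3, which was the lowest in both genotypes. The intervals of these 3 genes reach past a log2 fold change of 1 in size. With single libraries left out, the estimate ranged from 0.33 to 0.98 for PHO12, from -1.02 to 0.01 for PHO89 and from 0.13 to 0.96 for PHO11.

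For the other members the differences in hypoxia were smaller. PHO84 had a log2 fold change of 0.06 (95% interval from -0.58 to 0.70), PHO5 one of 0.02 (from -0.45 to 0.50), PHO3 one of 0.07 (from -0.28 to 0.42) and PHO8 one of 0.13 (from -0.53 to 0.78). SPL2 had -0.11 (from -1.15 to 0.94), VTC1 -0.00 (from -0.42 to 0.41) and VTC3 -0.12 (from -0.64 to 0.39). The groups overlapped for all 10 genes, while over all genes every set4Δ library lay above every WT library for 9.57% and below for 590 of the 5875 genes. Without hypoxic library 3 of both genotypes, an alternative chosen after the data were seen, 0 members were called as well, against 212 genes called higher and 176 called lower by that fit, with 0.69 for PHO12 (adjusted p = 0.10), 0.58 for PHO11 (0.12) and -0.46 for PHO89 (0.16).

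In air, limma called 0 members between set4Δ and WT cells, against 0.0516% of 5814 genes, and 1 member, SPL2, had an unadjusted p of at most 0.05, against 4.82% of all genes. SPL2 had 1268, 1345 and 1314 normalized counts in aerobic set4Δ libraries, against 1050, 1223 and 1095 in aerobic WT libraries, a log2 fold change of 0.22 (SE 0.06, unadjusted p = 0.0036, adjusted p = 0.77). All 3 set4Δ libraries lay above all 3 WT libraries, as they did for 4.52% of all genes, and 0 members lay below in every set4Δ library, against 5.50% of all genes. The other members had log2 fold changes in air between -0.04, for PHO11, and 0.15, for PHO5. Their 95% intervals lay within -0.18 and 0.35, narrower than in hypoxia. PHO11 and PHO12, close to chromosome ends, had -0.04 each, with intervals from -0.17 to 0.08 and from -0.17 to 0.09.

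**Figure D4:**
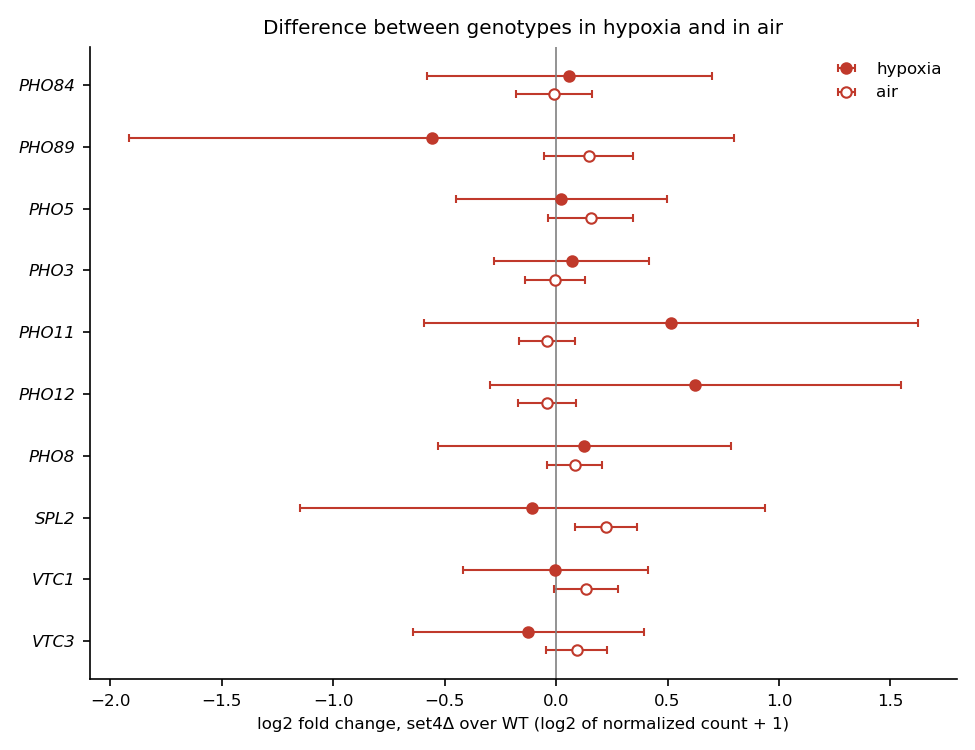
Log2 fold change from limma of set4Δ over WT for each of the 10 genes (x axis, on log2 of the normalized count + 1) in hypoxia (filled, upper) and in air (open, lower), with 95% intervals. The intervals in hypoxia span 0 for every gene, and in air they span 0 for every gene but SPL2, whose adjusted p was 0.77.

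The difference of the hypoxia responses, set4Δ minus WT, was tested over all 12 libraries, which are the same libraries as in the comparisons above. It was called for 0 members, against 1.46% of 5803 genes, and 0 members had an unadjusted p of at most 0.05, against 694 of the 5803 genes. PHO89 had a difference of -0.70 on the log2 scale (SE 0.63, adjusted p = 0.75 from limma), PHO12 one of 0.67 (SE 0.43, adjusted p = 0.61) and PHO11 one of 0.56 (SE 0.51, adjusted p = 0.76). SPL2 and VTC3, called in 1 genotype and not in the other, had differences of -0.33 (adjusted p = 0.87) and -0.22 (adjusted p = 0.82), so that their responses were not shown to differ between genotypes. The remaining members had differences between -0.14 and 0.07.

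Within hypoxia, most members shared a low library 3. Deviations of library 3 from its group mean correlated at 0.734 between the genotypes over 5714 genes. Library 3 was not alone in this. Hypoxic WT library 2 correlated at 0.749 and 0.711 with hypoxic set4Δ libraries 1 and 2, and at -0.818 with set4Δ library 3. Hypoxic WT library 1 correlated at 0.026, 0.076 and -0.06 with set4Δ libraries 1, 2 and 3. Hypoxic library 3, numbered as in the tables of the hypoxia responses, was the lowest of its 3 libraries in both genotypes for 9 of the 10 genes, as it was for 28.2% of 5875 genes, and PHO3 was highest in it in both, as were 28.7% of all genes. Relative to the mean of libraries 1 and 2, PHO89 was at -1.70 on the log2 scale in set4Δ cells and -1.39 in WT cells, and of all genes 0.068% had a lower mean over both genotypes. PHO11 was at -1.32 in set4Δ cells and -1.14 in WT cells, SPL2 at -1.34 and -1.03, and PHO12 at -1.07 and -0.87. For PHO84, PHO8, PHO5, VTC1 and VTC3 the mean over both genotypes lay between -0.73 and -0.41, and for PHO3 it was 0.29. The central 90% of the other genes lay between -0.50 and 0.47. In air, by contrast, the highest library was at most 1.38 times the lowest for any member in set4Δ cells and 1.18 times in WT cells, against up to 3.40 times and 3.11 times in hypoxia, each for PHO89.

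The sums of stress genes were highest in hypoxic library 3 of both genotypes. The 5 genes of low oxygen summed to 82728, 77748 and 156119 normalized counts in hypoxic set4Δ libraries 1, 2 and 3, against 6854 to 7219 in air, and to 63900, 45990 and 93039 in hypoxic WT libraries, against 5867 to 6634 in air. All 5 were highest in library 3 of both genotypes. The 5 genes of low glucose and stationary phase summed to 12817, 11284 and 63588 in hypoxic set4Δ libraries, against 1746 to 2293 in air, and to 31946, 18391 and 85987 in hypoxic WT libraries, against 1741 to 2146 in air. Of these, 4 were highest in library 3 of both genotypes and CTT1 was lowest. None of these markers was at 0. Their part in the levels of the phosphate genes was not tested, and the labels name no batch.

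**Figure D5:**
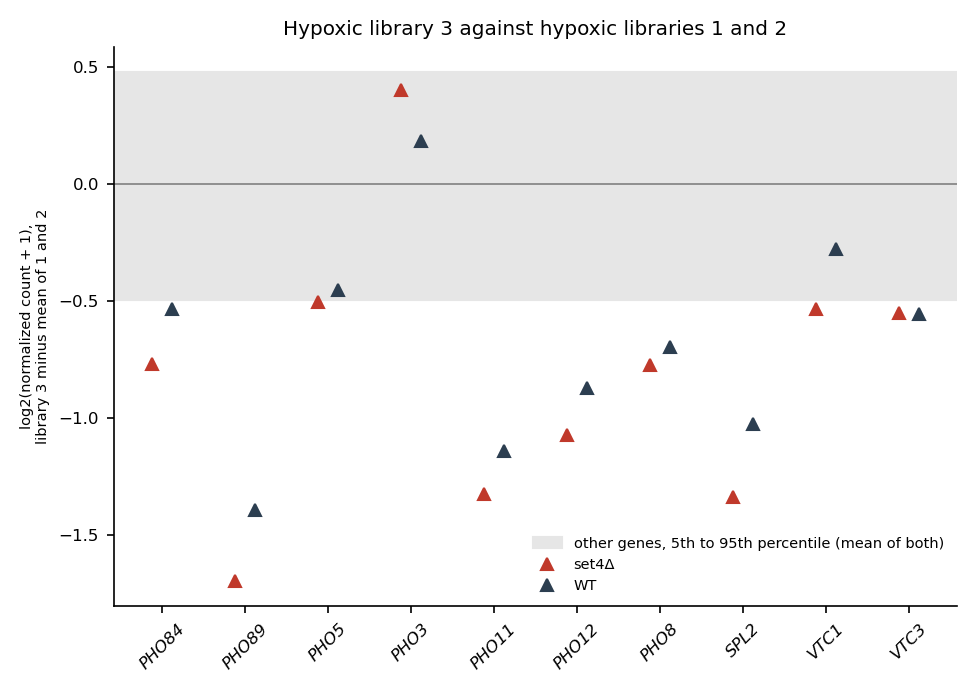
Difference between hypoxic library 3 and the mean of hypoxic libraries 1 and 2 on log2 of the normalized count + 1 (y axis) for the 10 genes in set4Δ cells (red) and WT cells (dark blue). The grey band spans the 5th to 95th percentile of the other genes, from -0.50 to 0.47, for the mean over both genotypes. The points are of single genotypes, for which these percentiles were -0.60 and 0.57 in set4Δ cells and -0.49 and 0.45 in WT cells. PHO89, PHO11, SPL2 and PHO12 lie farthest below it, and PHO3 lies above 0.

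Beyond the 10 genes, 6 lists of 37 other genes of phosphate handling were read. In hypoxia 9 were called higher and 6 lower in set4Δ cells, and 8 higher and 3 lower in WT cells, against the shares of all genes given above. Their median log2 fold changes were -0.03 and 0.11. Between genotypes 0 of the 37 were called in hypoxia, and 0 of 36 in air and for the difference of the responses. Among 6 regulators, PHO80, the cyclin gene, was called higher in set4Δ cells (1.01) and had 0.97 in WT cells, and PHO92, which encodes an RNA-binding protein, was called in both (1.41 and 1.63) at no more than 32.5 normalized counts in any library. PHO4, the activator, named after its values were seen, had 0.88 in set4Δ cells and 0.95 in WT cells, under the fold limit.

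Other genes of the pathway took both directions. Of 7 other transporter genes and helpers, GIT1, for uptake of glycerophosphoinositol, was called higher in both genotypes (1.31 in set4Δ cells and 1.2 in WT cells), while PHO91, for phosphate export from the vacuole, and PHO86, for the passage of Pho84 out of the endoplasmic reticulum, were called lower in set4Δ cells (-1.09 and -1.03) and had -0.97 and -0.96 in WT cells. Of 6 other polyphosphate genes, 3 were called lower in each genotype and none higher. VTC2, a further subunit of the complex, had -1.37 and -1.19, and PPN2, a polyphosphatase listed as YNL217W, had -1.09 and -1.07. VTC4, the catalytic subunit, had -1.03 in set4Δ cells and -0.84 in WT cells, and PPN1, a polyphosphatase, had -0.87 and -1.12. Of the subunit genes VTC1, VTC2, VTC3 and VTC4, 3 were called lower in set4Δ cells and 1 in WT cells, at log2 fold changes between -1.37 and -0.81. VTC5, a further subunit gene named after its values were seen, went the other way, with 0.89 in set4Δ cells and 0.75 in WT cells (adjusted p = 3.6e-05 and 4.7e-05 from limma) and every hypoxic library above every aerobic one, under the fold limit in both genotypes.

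Of 8 other phosphate-regulated genes and phosphatases, 5 were called higher in each genotype. PHM7, a membrane protein gene, was nearest to PHO89 in size. It had 5070, 6561 and 1842 normalized counts in hypoxic set4Δ libraries, against 126, 132 and 133 in aerobic ones, and 5623, 6492 and 2514 in hypoxic WT libraries, against 113, 131 and 127 in aerobic ones. Its log2 fold changes were 4.91 and 5.18 (adjusted p = 1.7e-05 and 1.6e-06 from limma), and like PHO89 it was lowest in hypoxic library 3. PHM8, a nucleotide phosphatase gene, had 2.03 and 1.90, DIA3, a relative of the acid phosphatases, 1.86 and 1.80, and GPP2, for a glycerol phosphatase with the close paralog GPP1, 1.69 and 1.80. The single lower call, in set4Δ cells, was PHM6 (-1.55, against -0.49 in WT cells), named after its values were seen, and the difference of its responses did not pass (-1.05, adjusted p = 0.12). Of 4 genes of inositol pyrophosphate enzymes 0 were called. Of 6 genes of the calcineurin and alkaline pH response 1 was called, ENA1, for a sodium pump that has near copies in tandem, at 3.43 in set4Δ cells and 3.95 in WT cells.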

How the data were processed

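The signal values read here are gene counts divided by DESeq2 size factors, as deposited by the authors in 4 tables of 6 libraries, each scaled on its own. The authors removed ribosomal RNA, made stranded libraries, checked reads with FastQC and trimmed them with Trimmomatic 0.36. Alignment was with STAR 2.5.2b and counting with featureCounts of Subread 1.5.2. The build they aligned to was not given in the sources used here. The authors' own fold changes and p-values were not used.

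In the table for air, 1 WT column held 5825 values for 5822 genes, and the aligned copy of that library from the WT response table was used, multiplied by 1.04. This left 5814 genes. Libraries were matched between tables by constant ratios and carry the numbers of the response tables. A row that names no gene was left out in hypoxia.

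Comparisons were fitted in limma 3.58.1 (R 4.3.3) with an intensity trend, on the log2 of the value + 1. A gene entered when its mean reached 10 in 1 of the groups compared. P-values were adjusted by Benjamini-Hochberg over all genes, with a threshold of 0.05, and responses to hypoxia were called only from a log2 fold change of 1 in size. All 10 genes entered. The fits were also run on simulated data, with independent libraries and the same spread setting for all genes. In the hypoxic data library 3 deviated alike in both genotypes, so the simulation cannot vouch for the hypoxic fits. Alternatives were other pseudocounts, filters and scalings, robust estimation, a replicate block, each library left out, PHO11 and PHO12 summed, and hypoxic libraries 3 left out. No test on counts was run.

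Named are the 10 genes, SET4 and up to 4 called genes of each list and comparison with the largest changes. Genes and lists were chosen with earlier results of these data known.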

Additional observations from a re-analysis of the deposited data

How the results depend on the processing

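Of 850 values of single genes under the alternatives, 836 stayed on their side of the limits, 6 lost a call, 8 gained one and none changed sign with a call. Between genotypes in hypoxia, 2 members were called with a replicate block, PHO12 higher (0.63, adjusted p = 0.045 from limma) and PHO89 lower (-0.56, adjusted p = 0.046), against 0 without it and 0 with any single library left out. The block called 238 genes higher and 198 lower, against 48 and 23, and leaving out hypoxic library 3 of both genotypes called 212 and 176. Without single libraries the calls ranged from 14 to 61 higher and from 3 to 32 lower. The numbers are not shown to pair the libraries. Deviations of same-numbered hypoxic libraries correlated across genes at 0.026, 0.711 and 0.734, and not every library correlated best with its own number. The block changed no other call of a member. In air and for the difference of the responses, 0 members were called under every alternative. In the responses to hypoxia, 6 members were called in WT cells and 5 to 7 in set4Δ cells with single libraries left out. Summing PHO11 and PHO12 gave 5 in each genotype, since 2 members then count as 1. VTC1 was called lower in set4Δ cells without hypoxic library 1 (-1.05), hypoxic library 2 (-1.07) or aerobic library 1 (-1.02). The cause of these changes was not tested. No gene was removed by the minimum mean of 10, so that the fit without it gave the same values. For a single gene, groups of 3 allow an exact permutation p of 0.1 at best, so the calls rest on the spread that limma shares across genes.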
